A study of Rattus norvegicus with 16 samples.

Results

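The genes described here store, transport and release iron or break down heme in rat kidney cells. They are Fth1, Ftl1, Ncoa4, Tfrc, Slc11a2, Slc40a1, Hmox1, Hmox2, Ireb2 and Aco1, chosen by name and found by their symbol in the count table, 10 genes of 32623. A count in at least 1 library was present for 9 of these 10 genes and for 22082 of the 32623 genes. Fth1 was listed at 0 in every library and could not be tested.

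The study exposed an indirect co-culture of rat renal cells to acidosis and sequenced the poly(A)-enriched RNA of both cell lines separately. NRK-52E is an epithelial line derived from rat kidney and was kept on permeable filter inserts. NRK-49F is a rat kidney fibroblast line and was kept on the floor of the wells beneath those inserts. The comparison of pH within a line asks how each cell type responds to acidosis in the presence of the other. The control group of NRK-52E cells at pH 7.4 comprised 4 libraries (N1, N2, N5 and N6), and the acidosis group of NRK-52E cells at pH 6.0 comprised 4 libraries (N3, N4, N7 and N8). The NRK-49F controls at pH 7.4 were N9, N10, N13 and N14, and the NRK-49F acidosis group at pH 6.0 was N11, N12, N15 and N16. All 4 groups spent 24 h without serum and then 48 h at the stated pH, and all were co-cultured, so a monoculture was not analysed here. The line and its support always went together, so a difference between NRK-52E and NRK-49F cannot be told apart from a difference between filter insert and well.

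Cells take up transferrin-bound iron through the transferrin receptor, move it out of endosomes through divalent metal transporters, keep the surplus inside ferritin shells built of heavy and light chains, and release it through ferroportin. Heme oxygenases open the heme ring and free its iron, which makes heme breakdown a source of iron beside uptake. Iron regulatory proteins bind hairpins in the messages of ferritin and of the transferrin receptor when iron is scarce, and the proximal tubule, which reabsorbs filtered iron, expresses much of this machinery.

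Total counts over all genes lay between 16201084 and 34784862 fragments per library. The group medians were 19132388 in NRK-52E at pH 7.4, 21199012 in NRK-52E at pH 6.0, 20316554 in NRK-49F at pH 7.4 and 29093537 in NRK-49F at pH 6.0. Levels are given as FPM, a gene's fragments per 1000000 counted fragments after TMM scaling over the 16 libraries, and groups as mean ± SD of 4 libraries. A gene with no count could still have been present at 3 counts, which corresponds to 0.0938 to 0.199 FPM depending on the library, and this limit covers counting error only. Log2 fold changes and their SE came from edgeR, while a change given as a number of fold is the ratio of the group means in FPM and can differ somewhat from the edgeR value beside it. A gene was called a DEG when the Benjamini-Hochberg adjusted p-value (FDR) was below 0.01 in both the quasi-likelihood test of edgeR and the Wald test of DESeq2, with the same sign in both. Nothing in the labels says that the libraries of a group came from separate cultures, so the p-values measure the spread between these libraries only. Gene lengths were not used, so levels are compared between libraries, and where a gene is called the most abundant or given a rank this refers to its number of fragments, which also depends on its length. In bulk RNA, fewer cells of a type and less RNA per cell cannot be told apart.

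The cell line labels were compared with marker genes. Of 13 epithelial markers, a mean of 1 FPM was reached by 6 in NRK-52E at pH 7.4, by 4 at pH 6.0, by 3 in NRK-49F at pH 7.4 and by 2 at pH 6.0. Krt8 was the most abundant of them in each group, and it was not restricted to NRK-52E, with 430 ± 32, 316 ± 27.4, 848 ± 70.4 and 206 ± 9.43 FPM in the same order. The summed epithelial level was 488 to 561 FPM in NRK-52E at pH 7.4, 360 to 431 at pH 6.0, 788 to 952 in NRK-49F at pH 7.4 and 200 to 221 at pH 6.0. Ocln (41.2 ± 2.04 FPM), Krt7 (36.7 ± 4.69) and Tjp3 (17.3 ± 1.57) had higher means in NRK-52E controls than in NRK-49F controls, which had 0, 0.463 ± 0.338 and 1.32 ± 0.377 FPM. In NRK-52E at pH 6.0 the means of Ocln and Krt7 were lower, at 9.67 ± 1.05 and 15.51 ± 6.42 FPM, and that of Tjp3 was higher, at 43.8 ± 11.8 FPM. The defining epithelial genes Epcam, Krt18, Cldn4 and Cldn7 were near 0 in both lines, with highest counts in any library of 2, 4, 7 and 1, and Esrp1 had no count. Krt18 pairs with Krt8 in filaments, and since the rows of Fth1 and of the mitochondrial genes were listed at 0, it was not settled whether the low Krt18 row reflects the cells or the counting, so it says little about epithelial identity. Cdh1 reached 1.62 ± 0.221 FPM in NRK-52E controls and 0.315 ± 0.157 FPM at pH 6.0.

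The 11 fibroblast markers summed to 15929 to 17603 FPM in NRK-49F at pH 7.4 and 11205 to 12817 at pH 6.0, with 9 of the 11 genes at or above 1 FPM. In NRK-52E the sum was 6864 to 7300 FPM at pH 7.4 and 2270 to 3579 at pH 6.0, with 7 and 6 genes at that level. Vim was the most abundant in NRK-49F at pH 7.4 (7108 ± 715 FPM) and Col1a1 at pH 6.0 (8288 ± 922). Pdgfra separated the lines, at 392 ± 54.7 FPM in NRK-49F and 0.286 ± 0.110 in NRK-52E at pH 7.4. Col3a1 was the most abundant of the list in NRK-52E, with 6221 ± 95.0 FPM at pH 7.4, above the 458 ± 103 FPM of NRK-49F, so this collagen went against the label. Thy1 had no count in any library. The 7 proximal tubule markers summed to 56.3 to 74.9 and 24.9 to 36.4 FPM in NRK-52E at pH 7.4 and 6.0, led by Aqp1, and to 142 to 195 and 364 to 560 FPM in NRK-49F, led by Ggt1. At 1 FPM or more were 3, 4, 4 and 4 of these 7 genes in the same order, while Lrp2 was at 0.634 ± 0.293 FPM in NRK-52E controls and Slc34a1 had no count in NRK-52E. The names NRK-52E and NRK-49F are therefore used for the lines, without a finer cell type.

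Macrophages and erythroid cells handle much heme iron, so their markers were examined too. The 7 macrophage markers summed to 75.7 to 96.1 FPM in NRK-52E at pH 7.4, 65.3 to 105 at pH 6.0, 339 to 381 in NRK-49F at pH 7.4 and 352 to 390 at pH 6.0. Cd14 led the list in 3 groups and Cd68 (243 ± 20.2 FPM) in NRK-49F at pH 6.0, and 2, 3, 2 and 2 genes reached 1 FPM. Ptprc, Adgre1, C1qa and Cd163, which define macrophages, had no count in any library. Of the erythroid markers 4 were examined, and Hba-a1 was not analysed here. Their sum was 2.86 to 3.86 FPM in NRK-52E at pH 7.4, 11.7 to 16.6 at pH 6.0, 0.303 to 0.915 in NRK-49F at pH 7.4 and 0.265 to 0.910 at pH 6.0, with 2, 1, 0 and 0 genes at 1 FPM or more. Klf1 (2.1 ± 0.409 FPM) led in NRK-52E controls and in both NRK-49F groups, Epor (12.9 ± 2.12 FPM) led in NRK-52E at pH 6.0, and Hbb was at 0 throughout. The part of any of these marker levels in the results was not tested.

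At pH 6.0, NRK-52E cells had more Ftl1 and Hmox2 and less Tfrc, Aco1 and Slc40a1 message than at pH 7.4. That is 2 members higher and 3 lower of 9 tested, with 4 not called, where 28.2% of 13735 tested genes were called higher and 28.5% lower. In NRK-49F cells, Ftl1 and Ireb2 were higher, 2 of 9 tested members, and 7 were not called, where 18.4% of 13339 genes were called higher and 19.4% lower. Between the lines at pH 7.4, 6 members were higher in NRK-52E (Ncoa4, Tfrc, Slc11a2, Slc40a1, Ireb2 and Aco1) and 3 were lower (Ftl1, Hmox1 and Hmox2), where 33.3% of 14026 genes were higher and 33.3% lower. At pH 6.0, 5 members were higher in NRK-52E (Ncoa4, Slc11a2, Slc40a1, Hmox2 and Ireb2), 1 was lower (Hmox1) and 3 were not called, where 28.6% of 13796 genes were higher and 31.3% lower. The response to pH differed between the lines, by the interaction of line and pH, for Ftl1 and Hmox2 in the positive direction and for Tfrc, Aco1 and Slc40a1 in the negative direction, 2 and 3 of 9, where 19.3% of 14679 genes were positive and 17.5% negative. With 7793 of 13735 tested genes called in NRK-52E, 5 of 9 members is close to the background and is no result about the members as a set.

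Taken without sign, the log2 fold changes of the tested members had a median of 0.54 in NRK-52E (0.70 over all genes), 0.34 in NRK-49F (0.42), 1.51 between the lines at pH 7.4 (0.73), 0.69 between the lines at pH 6.0 (0.79) and 0.88 for the interaction (0.70). With libraries scaled by total counts in place of TMM, the median log2 fold change of all genes moved to -0.21 in NRK-52E, 0.04 in NRK-49F, 0.34 and 0.12 between the lines at pH 7.4 and 6.0, and -0.25 for the interaction. The share of called genes that were higher then went from 49.7% to 37.6% in NRK-52E, from 50% to 65.7% between the lines at pH 7.4 and from 52.4% to 33.8% for the interaction. Each member call named above held with that scaling.

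**Figure D1:**
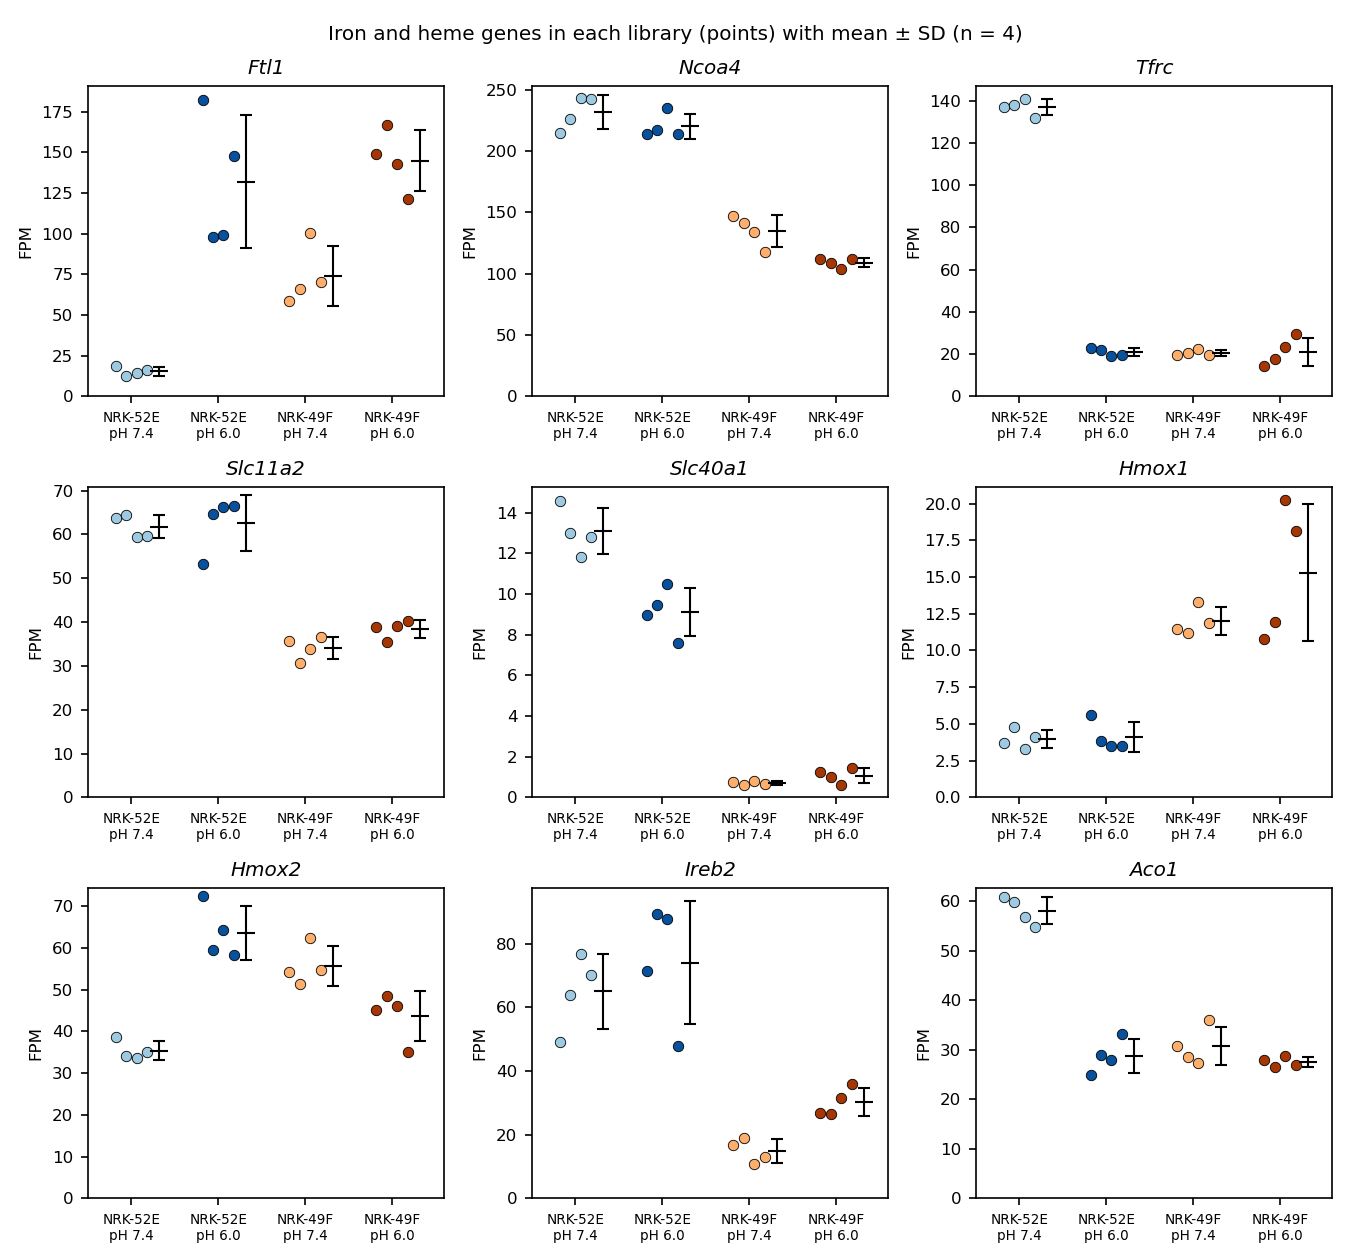
Level of the 9 members with counts in each of the 16 libraries, in FPM on a linear axis, 1 panel per gene, with points for libraries and bars for the mean ± SD of 4 libraries per group. Tfrc was at 132 to 141 FPM in NRK-52E at pH 7.4 and between 14.2 and 29.3 FPM in the other groups, and Ftl1 was lowest in the same NRK-52E controls.

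Ferritin stores iron in a shell of heavy chains, which oxidise the metal, and light chains, which help it to mineralise. The heavy chain gene Fth1 had a row with 0 counts in all 16 libraries. RefSeq lists 6 copies of Fth1, 5 of them pseudogenes, and 0 of these had a row of their own. A listed 0 for this gene cannot be read as absence of its message, so no Fth1 level, fold change or ratio to another gene is given. Ftmt, the mitochondrial ferritin, also had no count, and the ferritin-like genes Fthl17e and Fthl17c did not exceed 2 and 3 counts.

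The row named Ftl1 (ENSRNOG00000031506, chromosome 5) carried 18.5, 12.6, 14.3 and 15.9 FPM in N1, N2, N5 and N6 of NRK-52E at pH 7.4, and 182, 98.0, 99.1 and 148 FPM in N3, N4, N7 and N8 at pH 6.0. In NRK-49F it carried 58.7, 66.3, 100 and 70.6 FPM in N9, N10, N13 and N14 at pH 7.4, and 149, 167, 143 and 121 FPM in N11, N12, N15 and N16 at pH 6.0. The pH groups did not overlap in either line, and every NRK-52E control lay below every other library. The group means were 15.3 ± 2.51, 132 ± 40.9, 74.0 ± 18.3 and 145 ± 18.8 FPM. From high to low the order was NRK-49F at pH 6.0, NRK-52E at pH 6.0, NRK-49F at pH 7.4 and NRK-52E at pH 7.4, and the libraries of the upper 3 groups overlapped between neighbours. Acidosis raised Ftl1 8.59-fold in NRK-52E (log2 fold change 3.09, SE 0.23, edgeR FDR 9.39e-07) and 1.96-fold in NRK-49F (0.96, SE 0.16, edgeR FDR 0.000381). The rise was larger in NRK-52E by 2.12 on the log2 scale (SE 0.28, edgeR FDR of the interaction 8.08e-06). At pH 7.4 the NRK-49F mean was 4.82 times that of NRK-52E, and the edgeR log2 fold change of NRK-52E against NRK-49F was -2.19 (SE 0.17, edgeR FDR 3.83e-07), while at pH 6.0 the difference between the lines was -0.15 (SE 0.20, edgeR FDR 0.514) and was not called.

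The column names carry a second number of unknown meaning that divides each line into a pair of sets, each with both pH values. NRK-52E has the numbers 21 and 22 and NRK-49F has 20 and 21, so the number partly goes together with the line. Within NRK-52E the log2 fold change of Ftl1 was 3.14 and 3.01 in the libraries numbered 21 and 22. Within NRK-49F it was 1.34 for number 20 and 0.61 for number 21, and the latter was not called (edgeR FDR 0.0420, the highest over 19 alternatives that ranged from 2.43e-06 to 0.0420).

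Ferritin light chain has many copies in the rat genome, so other rows that could share its fragments were examined. RefSeq lists 21 loci as copies of Ftl1, 15 of them pseudogenes and 6 protein-coding, and 1 of these had a row in the table, LOC100359668 (ENSRNOG00000033776, chromosome 6). LOC100360087 (ENSRNOG00000020843, chromosome 1) was added after its values were seen. RefSeq gives it Ftl1 as a synonym, and its row sits on the chromosome where RefSeq places Ftl1, whereas the row named Ftl1 sits on the chromosome where RefSeq places LOC100360087. By summed count LOC100360087 ranked 8 among all genes, LOC100359668 ranked 1853 and Ftl1 ranked 2529. The Ftl1 count was 66.4% to 92.2% of that of LOC100359668 in the 16 libraries (median 75.1%) and 2.38% to 3.69% of that of LOC100360087 (median 2.78%). The counting options, as read here, count a fragment that matches several places at each of them. If the mapper reported every such place, fragments shared with Ftl1 made up at most 3.69% of the LOC100360087 count in any library and those shared with LOC100359668 at most 4.18%, so most of the LOC100360087 count was not shared with either row. The counts of the 2 smaller rows could consist of fragments shared with it, and their locus of origin cannot be told apart. Copies without a row were not examined, so all 3 rows are reported as uncertain measures of ferritin light chain message.

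LOC100360087 was at 694, 531, 527 and 598 FPM in N1, N2, N5 and N6, and at 5469, 3437, 4002 and 3997 FPM in N3, N4, N7 and N8. In NRK-49F it was at 2159, 2169, 2895 and 2308 FPM in N9, N10, N13 and N14, and at 5280, 5582, 5359 and 4434 FPM in N11, N12, N15 and N16. The pH groups were apart in both lines, and only the acidosis groups of the 2 lines overlapped. It rose 7.20-fold in NRK-52E (2.83, SE 0.17, edgeR FDR 2.63e-07) and 2.17-fold in NRK-49F (1.10, SE 0.13, edgeR FDR 2.64e-05), with an interaction of 1.72 (SE 0.21, edgeR FDR 3.19e-06). In the NRK-49F libraries numbered 21 alone its log2 fold change was 0.89 and was not called by edgeR (FDR 0.0168, range over 19 alternatives 6.61e-07 to 0.0168). LOC100359668 averaged 21.3 ± 3.51 FPM in NRK-52E controls and 165 ± 44.6 FPM at pH 6.0, and 92.6 ± 14.9 and 187 ± 30.0 FPM in NRK-49F. Its log2 fold changes were 2.93 (SE 0.20, edgeR FDR 5.24e-07) and 1.0 (SE 0.14, edgeR FDR 0.000112), and in the NRK-49F libraries numbered 21 it was 0.70 (edgeR FDR 0.0230, range over 19 alternatives 8.78e-07 to 0.0230) and not called. All 3 rows thus gave the same direction and the same calls in each of the 5 comparisons.

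**Figure D2:**
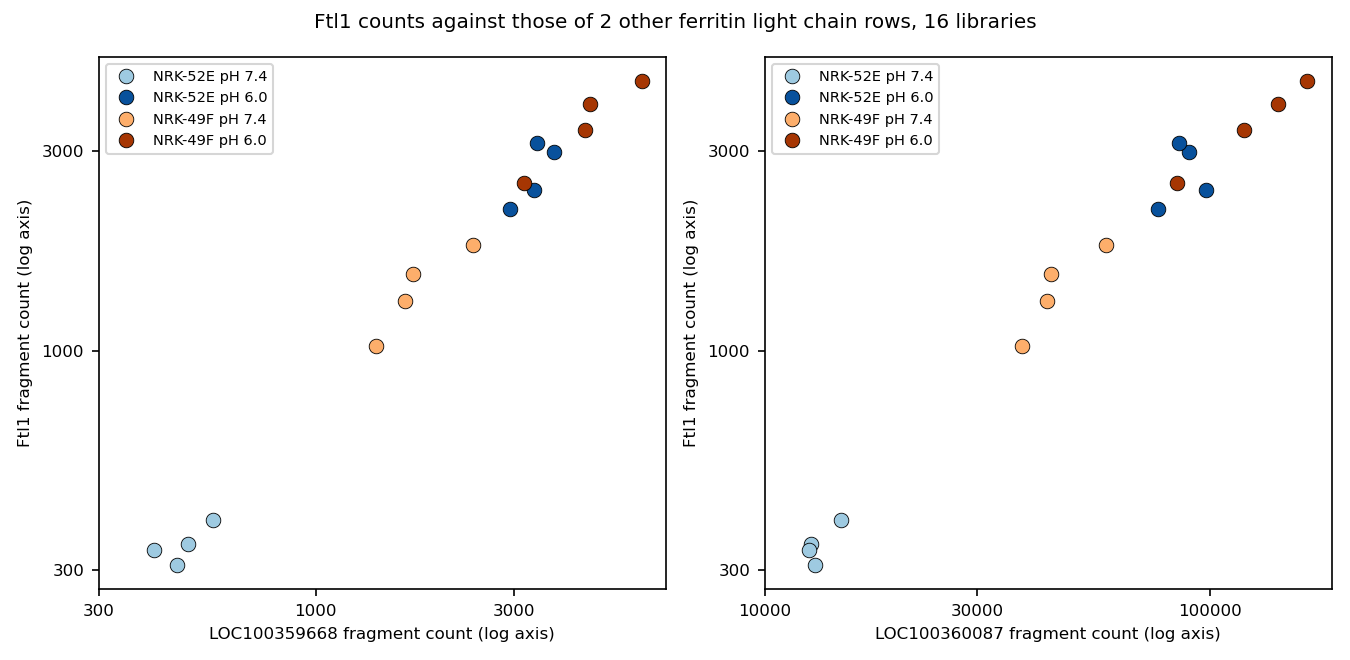
Fragment counts of the Ftl1 row in each of the 16 libraries against those of LOC100359668 (left) and LOC100360087 (right), both axes logarithmic, coloured by group. The points lie along a line in both panels, with Ftl1 at 66.4% to 92.2% of the first and 2.38% to 3.69% of the second.

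Ncoa4 encodes the receptor that carries ferritin to lysosomes for iron release. It ranged from 215 to 244 FPM in NRK-52E at pH 7.4 and from 214 to 235 at pH 6.0, and from 117 to 147 FPM in NRK-49F at pH 7.4 and from 104 to 112 at pH 6.0. The NRK-52E groups overlapped, and both lay above every NRK-49F library. Its log2 fold change with acidosis was -0.10 (SE 0.08, edgeR FDR 0.312) in NRK-52E. There it depended on the scaling, and with total-count scaling it was -0.30 and just missed the call (edgeR FDR 0.0101, DESeq2 FDR 0.00498). In NRK-49F, where the pH groups did not overlap, it was -0.32 (SE 0.09) and missed the call because the edgeR FDR was 0.0119, while the DESeq2 FDR was 0.00624. Without N14 it was called, at -0.39 (edgeR FDR 0.00254), as it was in the libraries numbered 20 alone (-0.39, edgeR FDR 0.00221), with the column number as covariate (-0.32, edgeR FDR 0.00941) and in the joint fit of 16 libraries (-0.32, edgeR FDR 0.00404), with edgeR FDRs from 0.00221 to 0.311 over 19 alternatives. NRK-52E exceeded NRK-49F by 0.86 at pH 7.4 and by 1.0 at pH 6.0 on the log2 scale, both called.

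Tfrc, the receptor that brings transferrin-bound iron into the cell, was at 137, 138, 141 and 132 FPM in N1, N2, N5 and N6, and at 22.8, 22, 19.0 and 19.5 FPM in N3, N4, N7 and N8. NRK-49F cells had 19.7, 20.3, 22.5 and 19.5 FPM in N9, N10, N13 and N14, and 14.2, 17.6, 23.4 and 29.3 FPM in N11, N12, N15 and N16. The 4 NRK-52E controls were high and the other 12 libraries were low, with the 3 low groups overlapping. The group means were 137 ± 3.61, 20.8 ± 1.85, 20.5 ± 1.36 and 21.1 ± 6.66 FPM. Tfrc fell 6.57-fold with acidosis in NRK-52E (log2 fold change -2.74, SE 0.09, edgeR FDR 2.05e-08), and by -2.66 and -2.84 within the column numbers 21 and 22. The log2 fold change in NRK-49F was 0.03 (SE 0.19, edgeR FDR 0.890), made up of -0.33 for number 20 and 0.31 for number 21, neither of them called. The difference between the responses was -2.79 (SE 0.22, edgeR FDR 2.60e-08). NRK-52E exceeded NRK-49F at pH 7.4 by 2.82 (SE 0.08, edgeR FDR 4.74e-11), and the difference at pH 6.0 was -0.04 (SE 0.21, edgeR FDR 0.872).

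Slc11a2, the divalent metal transporter that passes iron out of endosomes, ranged from 59.4 to 64.4 FPM in NRK-52E at pH 7.4 and from 53.3 to 66.6 at pH 6.0. In NRK-49F it ranged from 30.6 to 36.5 FPM at pH 7.4 and from 35.5 to 40.3 at pH 6.0. The pH groups overlapped within each line, and every NRK-52E library was above every NRK-49F library. Neither pH comparison was called, with log2 fold changes of -0.00 in NRK-52E (edgeR FDR 0.995) and 0.16 in NRK-49F (edgeR FDR 0.176). The lines differed by 0.94 at pH 7.4 (edgeR FDR 6.66e-07) and by 0.69 at pH 6.0 (edgeR FDR 0.000127). At pH 6.0 this call was lost with the column number as covariate (0.55, edgeR FDR 0.0126, range over 17 alternatives 1.88e-06 to 0.0126). Only number 21 occurs in both lines, so with that covariate the line difference rests on the libraries numbered 21 alone.

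Slc40a1 encodes ferroportin, the iron exporter of the cell membrane. It was at 14.6, 13, 11.8 and 12.8 FPM in N1, N2, N5 and N6, and at 8.99, 9.44, 10.493 and 7.62 FPM in N3, N4, N7 and N8. The NRK-49F libraries showed 0.743, 0.606, 0.790 and 0.672 FPM in N9, N10, N13 and N14, and 1.24, 0.995, 0.585 and 1.44 FPM in N11, N12, N15 and N16. Each NRK-52E control was above each acidotic NRK-52E library, both groups were above all NRK-49F libraries, and the NRK-49F groups overlapped. The NRK-49F values rest on 12 to 17 counts at pH 7.4 and 15 to 46 counts at pH 6.0. The means were 13.1 ± 1.14, 9.13 ± 1.19, 0.703 ± 0.0806 and 1.06 ± 0.368 FPM. The lines differed by 4.30 at pH 7.4 (SE 0.16, edgeR FDR 6.56e-10) and by 3.08 at pH 6.0 (SE 0.29, edgeR FDR 1.13e-06). With acidosis Slc40a1 fell 1.43-fold in NRK-52E (-0.53, SE 0.14, edgeR FDR 0.00607), and the value in NRK-49F was 0.59 (SE 0.35, edgeR FDR 0.176) and was not called.

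The fall of Slc40a1 in NRK-52E was close to the threshold. It was no longer called without N1 (-0.49, edgeR FDR 0.0202), N2 (-0.54, 0.0189), N3 (-0.53, 0.0119), N4 (-0.56, 0.0113) or N6 (-0.57, 0.0160), in the joint fit of 16 libraries (-0.55, 0.0176), or within column number 21 (-0.62, 0.0301) or 22 (-0.46, 0.190), 8 of 19 alternatives, over which the edgeR FDR ranged from 0.00106 to 0.190. The sign was the same in all 19. The interaction was -1.14 (SE 0.33, edgeR FDR 0.00754). That call was lost in 13 of 24 alternatives, which were those without N1, N2, N4, N6, N8, N9, N10, N11, N12, N14 or N16, without the filter on low counts, and with the column number as covariate, with values from -1.38 to -0.93 and edgeR FDRs from 0.000672 to 0.0258 over the 24. Leaving out N16 gave the smallest interaction, -0.93 (edgeR FDR 0.0258).

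Hmox1, the inducible heme oxygenase, was at 3.70, 4.79, 3.27 and 4.09 FPM in N1, N2, N5 and N6, and at 5.63, 3.87, 3.48 and 3.48 FPM in N3, N4, N7 and N8. In NRK-49F it was at 11.489, 11.2, 13.3 and 11.9 FPM in N9, N10, N13 and N14, and at 10.8, 11.9, 20.3 and 18.1 FPM in N11, N12, N15 and N16. The pH groups overlapped in both lines, and every NRK-49F library was above every NRK-52E library. The highest values were those of N15 and N16, which share the column number 21. The means were 3.97 ± 0.645, 4.11 ± 1.02, 12 ± 0.941 and 15.3 ± 4.65 FPM. Its log2 fold change with acidosis was 0.03 in NRK-52E (SE 0.22, edgeR FDR 0.922) and 0.34 in NRK-49F (SE 0.19, edgeR FDR 0.150), neither called. Within NRK-52E it was 0.11 for number 21 and -0.10 for number 22, and within NRK-49F 0.00 for number 20 and 0.59 for number 21 (edgeR FDR 0.0656, range over 19 alternatives 0.0413 to 0.994). NRK-49F exceeded NRK-52E at both pH values, with log2 differences of -1.51 (SE 0.15, edgeR FDR 2.93e-06) and -1.92 (SE 0.26, edgeR FDR 2.90e-05) for NRK-52E against NRK-49F.

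Hmox2, the constitutive heme oxygenase, was at 38.7, 34.0, 33.7 and 35.2 FPM in N1, N2, N5 and N6, and at 72.4, 59.5, 64.4 and 58.3 FPM in N3, N4, N7 and N8. NRK-49F cells had 54.2, 51.4, 62.4 and 54.6 FPM in N9, N10, N13 and N14, and 45.2, 48.6, 46.1 and 35 FPM in N11, N12, N15 and N16. The pH groups did not overlap in either line, and they were ordered in opposite directions. From high to low the means were 63.6 ± 6.42 FPM in NRK-52E at pH 6.0, 55.7 ± 4.72 in NRK-49F at pH 7.4, 43.7 ± 6.0 in NRK-49F at pH 6.0 and 35.4 ± 2.28 in NRK-52E at pH 7.4, and the first pair and the last pair of neighbours overlapped. Acidosis raised Hmox2 1.80-fold in NRK-52E (0.83, SE 0.10, edgeR FDR 3.33e-05), by 0.82 and 0.81 within the column numbers 21 and 22. In NRK-49F the log2 fold change was -0.36 (SE 0.12) and missed the call with an edgeR FDR of 0.0219 and a DESeq2 FDR of 0.0190, and it was -0.17 for number 20 and -0.55 for number 21, neither called. The responses differed by 1.18 (SE 0.16, edgeR FDR 8.35e-06). At pH 7.4 NRK-52E had less Hmox2 than NRK-49F (-0.57, SE 0.09, edgeR FDR 8.57e-05), and at pH 6.0 it had more (0.53, SE 0.13, edgeR FDR 0.00331). The call at pH 6.0 was lost without N3 (0.47, edgeR FDR 0.0117) and without N16 (0.42, edgeR FDR 0.0101), with a range of 0.000321 to 0.0117 over 17 alternatives.

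Ireb2 encodes the iron regulatory protein that is degraded when iron is plentiful. It was at 49.1, 63.8, 76.8 and 70.1 FPM in N1, N2, N5 and N6, and at 71.3, 89.3, 87.8 and 47.7 FPM in N3, N4, N7 and N8. The NRK-49F libraries showed 16.9, 19.0, 10.7 and 12.8 FPM in N9, N10, N13 and N14, and 26.9, 26.5, 31.5 and 36.0 FPM in N11, N12, N15 and N16. The NRK-52E groups overlapped widely, and the NRK-49F groups were apart from each other and below every NRK-52E library. The means were 65.0 ± 11.8, 74.0 ± 19.3, 14.8 ± 3.76 and 30.2 ± 4.44 FPM. Acidosis raised Ireb2 2.04-fold in NRK-49F (1.01, SE 0.17, edgeR FDR 0.000432), by 0.58 and 1.50 within the column numbers 20 and 21, both called. In NRK-52E the log2 fold change was 0.16 (SE 0.19, edgeR FDR 0.474). The difference between the responses, -0.86 (SE 0.28), was not called because the edgeR FDR was 0.0161, with a DESeq2 FDR of 0.00903. It was called without N1 (-0.98, edgeR FDR 0.00760), without N10 (-1.0, edgeR FDR 0.00776) and with total-count scaling (-1.09, edgeR FDR 0.00526), with a range of 0.00526 to 0.0376 over 24 alternatives. The lines differed by 2.21 at pH 7.4 (edgeR FDR 7.36e-07) and by 1.27 at pH 6.0 (edgeR FDR 5.96e-05).

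Aco1 encodes the cytosolic aconitase that turns into an iron regulatory protein when it loses its iron-sulfur cluster. It was at 60.9, 59.9, 56.8 and 54.9 FPM in N1, N2, N5 and N6, and at 24.8, 29.0, 28.0 and 33.1 FPM in N3, N4, N7 and N8. In NRK-49F it was at 30.8, 28.6, 27.4 and 36.1 FPM in N9, N10, N13 and N14, and at 28.0, 26.6, 28.8 and 26.9 FPM in N11, N12, N15 and N16. As with Tfrc, the 4 NRK-52E controls were high and the other 3 groups were low and overlapped. The means were 58.1 ± 2.77, 28.7 ± 3.41, 30.7 ± 3.85 and 27.6 ± 1.02 FPM. Aco1 fell 2.02-fold with acidosis in NRK-52E (-1.03, SE 0.11, edgeR FDR 1.03e-05), by -1.21 within column number 21 and by -0.89 within number 22, the latter not called (edgeR FDR 0.0114, range over 19 alternatives 8.17e-08 to 0.0114). In NRK-49F the log2 fold change was -0.17 (SE 0.11, edgeR FDR 0.195), and the responses differed by -0.88 (SE 0.15, edgeR FDR 9.96e-05). NRK-52E exceeded NRK-49F by 1.0 at pH 7.4 (SE 0.10, edgeR FDR 1.86e-06), and the difference of 0.04 at pH 6.0 was not called (edgeR FDR 0.772).

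**Figure D3:**
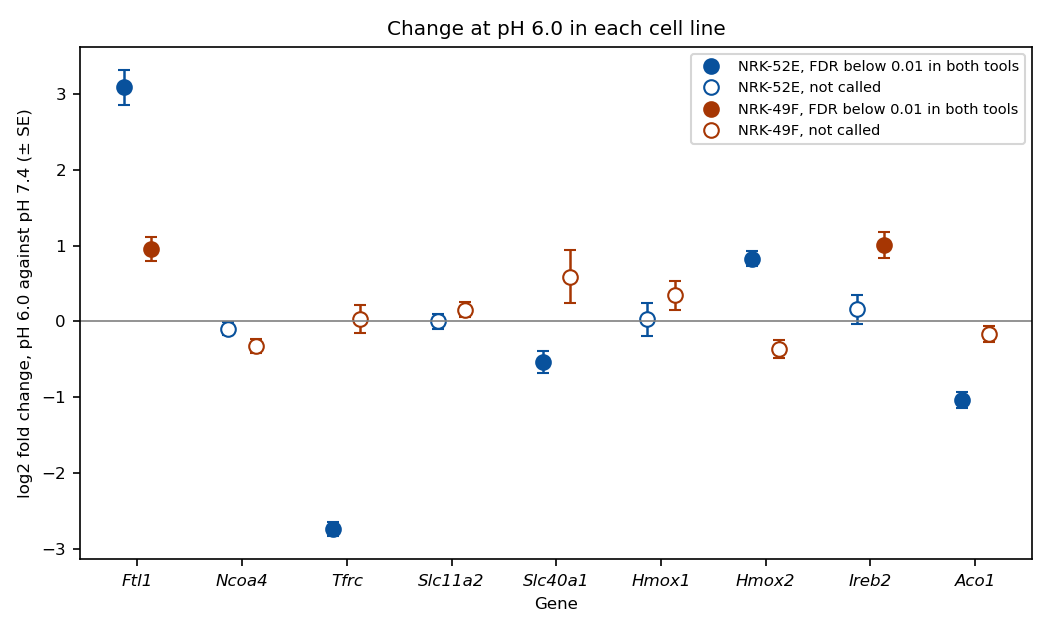
Log2 fold change at pH 6.0 against pH 7.4 with its SE for the 9 tested members in NRK-52E and NRK-49F, with filled symbols for called genes. Ftl1 at 3.09 and Tfrc at -2.74 lie at the ends of the NRK-52E values, and the NRK-49F values run from -0.36 for Hmox2 to 1.01 for Ireb2.

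Ratios of counts within a library do not depend on the scaling of libraries. The ratio of Hmox1 to Hmox2 was 0.0956 to 0.141 in NRK-52E at pH 7.4 and 0.0541 to 0.0777 at pH 6.0, and in NRK-49F 0.212 to 0.217 at pH 7.4 and 0.238 to 0.518 at pH 6.0. Its log2 mean moved by -0.81 in NRK-52E and by 0.66 in NRK-49F, with no overlap of the pH groups in either line. The NRK-49F shift came mostly from the libraries numbered 21, at 1.15, against 0.17 in those numbered 20. The ratio of Ireb2 to Aco1 was 0.808 to 1.35 in NRK-52E at pH 7.4 and 1.44 to 3.13 at pH 6.0, and in NRK-49F 0.356 to 0.663 at pH 7.4 and 0.961 to 1.34 at pH 6.0. Its log2 mean was higher at pH 6.0 by 1.19 in NRK-52E and by 1.2 in NRK-49F, again without overlap. It moved by 1.68 in number 21 and 0.69 in number 22 of NRK-52E and by 0.70 in number 20 and 1.70 in number 21 of NRK-49F. The 0.69 rests mostly on N7, whose ratio was 3.13, since N8 at 1.44 was close to the controls of that number at 1.28 and 1.35. Each of these 4 comparisons had an exact two-sided permutation p of 0.0286, the smallest that 4 against 4 libraries allow, and 0.0286 after Benjamini-Hochberg adjustment over the 4 tests. That test ignores the column number. Permuting only within the number, a test added after the data were seen, gave 0.0556 in each, the smallest that its 36 arrangements allow. With 1 library left out the p exceeded 0.05 in the cases below, with the log2 difference, not the p, in brackets. For Hmox1 to Hmox2 these were NRK-49F without N9 (0.65), N10 (0.67), N13 (0.66) or N14 (0.67). For Ireb2 to Aco1 they were NRK-52E without N1 (1.04), N2 (1.17), N5 (1.28) or N6 (1.26), and NRK-49F without N16 (1.10). Ratios to Fth1 could not be computed.

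The rest of iron and heme metabolism was described with 80 listed genes, of which 79 were in the table and Pcbp1 was not analysed here. In NRK-52E 30 of 69 tested genes rose and 13 fell, beside 28.2% and 28.5% of all tested genes, with a median log2 fold change of 0.48 against 0.00 for all genes, and with total-count scaling 23 rose and 18 fell. Among genes of mitochondrial iron and iron-sulfur cluster assembly 12 of 27 rose and 2 fell (10 and 4 with total-count scaling), and among genes of heme transport and breakdown 8 of 11 rose and 1 fell (6 and 2). For iron uptake, export and plasma iron proteins 5 of 13 rose and 6 fell (4 and 6). For heme synthesis 2 of 10 rose and 3 fell (2 and 4), and for regulators 3 of 8 rose and 1 fell (1 and 2). That scaling lowered the values of all genes together, and the share of all called genes that rose moved from 49.7% to 37.6%. The lower counts of rises are therefore not particular to these lists. The largest rises over these lists were in Slc25a28, a mitochondrial iron importer (from 46.4 ± 4.06 to 246 ± 26.7 FPM, 2.39, SE 0.11, edgeR FDR 6.95e-08), Steap3, a ferric reductase of endosomes (from 9.13 ± 0.264 to 46.7 ± 10.51 FPM, 2.33, SE 0.17, edgeR FDR 8.30e-07), and Blvrb, a biliverdin reductase (from 34.4 ± 3.21 to 175 ± 16.3 FPM, 2.33, SE 0.11, edgeR FDR 7.25e-08). The largest falls were in Uros, an enzyme of heme synthesis (from 6.16 ± 0.974 to 0.566 ± 0.439 FPM, -3.41, SE 0.43, edgeR FDR 4.67e-05), Hfe, a partner of the transferrin receptors (from 4.59 ± 0.267 to 1.01 ± 0.981 FPM, -2.18, SE 0.49, edgeR FDR 0.00224), and Slc46a1, a carrier of folate and heme (from 40.4 ± 2.23 to 9.36 ± 0.906 FPM, -2.13, SE 0.11, edgeR FDR 1.65e-07). The Hfe mean at pH 6.0 was carried by N8 at 2.44 FPM, and the other 3 libraries lay at 0.245 to 0.719 FPM with a mean of 0.526. Uros at pH 6.0 rested on 1 to 24 counts per library, with N8 at 1.13 FPM and the others at 0.0612 to 0.584.

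In NRK-49F 20 of 72 tested genes of these lists rose and 15 fell, beside 18.4% and 19.4% of all tested genes, with a median of 0.05 against -0.00 for all genes, and with total-count scaling 25 rose and 15 fell. Of 16 genes of iron uptake, export and plasma iron proteins 9 fell and 2 rose, with the same counts under total-count scaling, and the difference from the background was not tested. Mitochondrial iron and iron-sulfur cluster genes rose in 9 and fell in 2 of 27 (11 and 2 with that scaling), heme synthesis genes rose in 2 and fell in 2 of 10 (3 and 2), heme transport and breakdown genes rose in 3 and fell in 2 of 11 (4 and 2), and regulators rose in 4 and fell in 0 of 8 (5 and 0). Among the larger rises were those of the mitochondrial iron importers Slc25a37 (from 7.50 ± 1.32 to 25.6 ± 2.05 FPM, 1.75, SE 0.14, edgeR FDR 1.54e-06) and Slc25a28 (from 67.1 ± 2.07 to 206 ± 57.5 FPM, 1.61, SE 0.18, edgeR FDR 1.79e-05). The largest falls were in Scara5, a receptor for ferritin (from 100 ± 33.9 to 11.3 ± 6.25 FPM, -3.14, SE 0.33, edgeR FDR 1.17e-05), Lcn2, a binder of iron-carrying siderophores (from 54.5 ± 4.18 to 6.53 ± 2.20 FPM, -3.08, SE 0.21, edgeR FDR 4.03e-07), and Slc39a8, a metal importer (from 1.74 ± 0.555 to 0.278 ± 0.194 FPM, -2.53, SE 0.45, edgeR FDR 0.000499). The Slc39a8 mean at pH 6.0 leaned on N16 at 0.563 FPM, with the others at 0.133 to 0.221. That of Scara5 leaned on N16 too, at 20.6 FPM, with the others at 7.17 to 8.94.

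Between the lines at pH 7.4, 19 of 71 tested list genes were higher in NRK-52E and 33 were lower. Of all tested genes, 33.3% were higher and 33.3% lower. With total-count scaling 27 list genes were higher and 22 lower, while the share of all called genes that were higher moved from 50% to 65.7%. That scaling shifted all genes together, so the turn in these counts is not particular to the list. Uptake, export and plasma iron genes were lower in NRK-52E in 12 and higher in 2 of 15, and 10 and 3 with total-count scaling. Mitochondrial iron and iron-sulfur genes were lower in 17 and higher in 4 of 27, and 8 and 6 with that scaling. Higher and lower were 3 and 2 of 10 heme synthesis genes (4 and 2 with that scaling), 6 and 1 of 11 heme transport and breakdown genes (8 and 1), and 4 and 1 of 8 regulators (6 and 1). Higher in NRK-52E were Bmp6, a ligand that induces hepcidin (26.0 ± 2.0 against 3.97 ± 0.315 FPM, 2.79), and the heme synthesis enzymes Cpox (101 ± 4.60 against 18.1 ± 0.918 FPM, 2.57) and Alad (181 ± 18.8 against 46.2 ± 6.32 FPM, 2.05). Lower were the ferric reductase Cybrd1 (0.154 ± 0.0541 against 43.7 ± 5.87 FPM, -8.01), Steap1 of the metalloreductase family (0.794 ± 0.100 against 45.5 ± 6.59 FPM, -5.75) and Scara5 (2.12 ± 0.128 against 100 ± 33.9 FPM, -5.47). In NRK-52E controls Cybrd1 had 2 to 5 counts per library, near the limit of 3 counts given above, so the size of its difference is uncertain.

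Between the lines at pH 6.0, 19 of 70 tested list genes were higher and 19 lower in NRK-52E, close to the 28.6% and 31.3% of all tested genes, and 24 and 17 with total-count scaling. Higher and lower were 1 and 8 of 14 uptake, export and plasma iron genes (2 and 8 with total-count scaling), 5 and 8 of 27 mitochondrial iron and iron-sulfur genes (6 and 6), 3 and 2 of 10 heme synthesis genes (4 and 2), 7 and 0 of 11 heme transport and breakdown genes (8 and 0) and 3 and 1 of 8 regulators (4 and 1). The heme-handling genes included Hpx, the plasma heme binder hemopexin (6.24 ± 1.32 against 1.24 ± 0.304 FPM, 2.29), Flvcr2 of the heme exporter family (30.8 ± 3.32 against 6.39 ± 0.746 FPM, 2.26) and Blvra, a biliverdin reductase (64.2 ± 13.6 against 14 ± 2.46 FPM, 2.18). Lower were Cybrd1 (0.192 ± 0.133 against 40.2 ± 3.02 FPM, -7.78), Hfe (1.01 ± 0.981 against 35.1 ± 4.36 FPM, -5.11, the first mean resting largely on N8) and Bmp2, a further hepcidin-inducing ligand (4.64 ± 0.921 against 93.2 ± 35.4 FPM, -4.34). Cybrd1 had 2 to 6 counts per NRK-52E library at pH 6.0, so the size of its difference is again uncertain.

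The response to pH differed between the lines for 18 of 71 list genes in the positive and 8 in the negative direction. Of all tested genes, 19.3% were positive and 17.5% negative. With total-count scaling it differed for 12 and 13, while the share of all called genes that were positive moved from 52.4% to 33.8%. The change in these counts is therefore not particular to the list. Positive and negative were 6 and 1 of 15 uptake, export and plasma iron genes (4 and 2 with total-count scaling), 6 and 2 of 27 mitochondrial iron and iron-sulfur genes (3 and 4), 1 and 1 of 10 heme synthesis genes (1 and 2), 5 and 1 of 11 heme transport and breakdown genes (4 and 2) and 0 and 3 of 8 regulators, the last unchanged. Steap1 had an interaction of 3.0 (SE 0.39, edgeR FDR 6.96e-06), and Steap2, another metalloreductase, one of 2.53 (SE 0.16, edgeR FDR 1.73e-09). In NRK-49F Steap1 was at 45.5 ± 6.59 and 13.3 ± 3.31 FPM at pH 7.4 and 6.0. In NRK-52E it was at 0.794 ± 0.100 and 1.84 ± 0.956 FPM, and its rise was not called (edgeR FDR 0.0144). The NRK-52E mean at pH 6.0 leaned on N8 at 3.1 FPM, with the others at 0.856 to 1.97. Steap2 was at 14.9 ± 0.637 and 25.0 ± 1.87 FPM in NRK-52E at pH 7.4 and 6.0, and at 165 ± 21.1 and 47.2 ± 6.25 FPM in NRK-49F. Tfr2, the second transferrin receptor, had 2.21 (SE 0.62, edgeR FDR 0.00635) at levels below 1 FPM in every group mean, and with total-count scaling (1.99) it was not called. Negative were Hfe (-1.56, SE 0.42, edgeR FDR 0.00488, with the N8 value above entering it), Bmp2 (-1.38, SE 0.29, edgeR FDR 0.000638) and Slc48a1, a transporter of heme out of lysosomes (-1.36, SE 0.11, edgeR FDR 3.21e-08), which was at 352 ± 16.3 and 322 ± 13.1 FPM in NRK-52E and at 128 ± 3.66 and 297 ± 22.6 FPM in NRK-49F at pH 7.4 and 6.0.

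The patterns most like those of 4 members were found by the root mean square difference of centred log2(FPM + 1) over the 16 libraries, among genes with a mean of at least 10 FPM. For Ftl1 the nearest were LOC100359668 (0.121), LOC100360087 (0.151) and, farther off, Golt1b (0.432). Tfrc had Cep89 (0.294), Olfml2a (0.295) and Hr (0.327) as its nearest. Nearest to Slc40a1 were Ankrd6 (0.238), Ptpn13 (0.246) and Arhgap29 (0.269), and nearest to Hmox1 were Gprc5b (0.184), Rpia (0.195) and Gatd1 (0.219). Apart from the ferritin rows these are likenesses of level over 4 groups and say nothing of shared function.

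Promoter sequence from RefSeq (assembly GRCr8) was available for 7 of the 10 members, in 9 windows of 250 bases upstream of a transcript start, with no entry for Fth1, Ftl1 and Hmox1. Each window was searched on both strands for TGACNNNGC, the core of the antioxidant response element, which occurs in 10.1% of 33469 rat promoter windows of this length, and for ACGTG, the core of the hypoxia response element, which occurs in 16.6%. The windows of Tfrc and Aco1 are shown because these members shared the pattern of high NRK-52E controls and 3 low groups. Hmox2 was added because its pH groups were ordered in opposite directions in the 2 lines. Of the 2 windows of Hmox2, only that with matches is shown, and which transcript start these cells use was not examined. Tfrc (chr11:81690319-81690568, minus strand) has 1 match to ACGTG, Hmox2 (chr10:11337613-11337862, minus strand) has 1 match to each motif, and Aco1 (chr5:60055645-60055894, plus strand) has none, with matches in capitals and sequences written 5′ to 3′ on the gene's strand. A match describes the letters in the window only.
Tfrc: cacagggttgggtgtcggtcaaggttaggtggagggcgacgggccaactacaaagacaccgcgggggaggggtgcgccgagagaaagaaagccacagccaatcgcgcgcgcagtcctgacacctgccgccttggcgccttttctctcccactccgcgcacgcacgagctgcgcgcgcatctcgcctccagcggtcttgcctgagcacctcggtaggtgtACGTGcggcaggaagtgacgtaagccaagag
Hmox2: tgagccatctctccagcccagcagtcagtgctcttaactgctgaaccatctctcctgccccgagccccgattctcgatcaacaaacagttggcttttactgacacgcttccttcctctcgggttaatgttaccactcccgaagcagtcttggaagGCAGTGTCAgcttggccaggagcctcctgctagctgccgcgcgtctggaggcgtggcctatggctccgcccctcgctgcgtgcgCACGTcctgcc
Aco1: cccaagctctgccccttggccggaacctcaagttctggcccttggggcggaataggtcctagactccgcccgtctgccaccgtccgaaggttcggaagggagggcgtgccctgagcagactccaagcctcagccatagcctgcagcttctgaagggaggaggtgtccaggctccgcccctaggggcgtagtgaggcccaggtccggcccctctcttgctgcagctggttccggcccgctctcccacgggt

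Of the remaining windows, that of Ncoa4 holds 1 match to each motif, and those of Ireb2 and Slc40a1, both windows of Slc11a2 and the other window of Hmox2 hold none. No binding was measured in these libraries.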

How the data were processed

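Whole fragment counts per gene were used as deposited by the authors. Per the submitters' processing notes, reads were mapped with HISAT2 2.1.0 and counted with featureCounts on the rat assembly rn6 with Ensembl annotation, while the methods of the study name tophat2 as mapper, and the difference could not be settled here. The methods give the counting command with option M, read here as counting a fragment with several matches at each place. The strand setting was not given in the sources used here, so antisense overlaps cannot be separated. Samples were grouped by the labelled cell line and pH, and 0 sample columns were unused. Libraries held 16201084 to 34784862 fragments. The 37 mitochondrial genes had no count in any library, so no mitochondrial share could be formed. Replicate pairs differed by more than sampling noise (chi-square per degree of freedom 6.12 to 92.2), so no pair looked like the same library sequenced again. Each library counted once, and this check cannot tell whether the libraries came from separate cultures.

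All genes were tested with edgeR 4.0.16 (quasi-likelihood test after filterByExpr, TMM) and DESeq2 1.42.0 (Wald test) in R 4.3.3, after a check of the code on simulated data. A DEG needed a Benjamini-Hochberg FDR below 0.01 in both, over all genes. Each pH or line comparison used its 8 libraries, and the interaction used 16. Ratios of counts were compared by exact two-sided permutation tests. Alternatives were total-count and median-of-ratios scaling, no count filter or at least 1 CPM in 4 libraries, each tool alone, FDR below 0.05, the column number as covariate or as a subset, a joint fit of 16 libraries, and leaving out each library in turn.

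Named were every member, the called pathway genes that changed most in each comparison, 3 upward and 3 downward, ferritin copies by name, the 3 genes most like each of 5 members (Fth1 had no pattern, and unnamed or LOC genes other than the ferritin copies were passed over), and the most abundant marker of each list. The members and lists were chosen with earlier results of these data known. LOC100359668 and LOC100360087 were tested as additions chosen after seeing the data. Pcbp1 and Hba-a1 were not analysed here, and a gene that the rule names is not reported here. RefSeq tables of assembly GRCr8 served for names, copies and promoter sequence. Their chromosomes were compared with those of the count rows, and otherwise none of their coordinates were combined with the counts.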

Additional observations from a re-analysis of the deposited data

Results flagged for a closer look

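In NRK-52E at pH 6.0, the Slc11a2 level of N3 was 53.3 FPM, apart from the other 3 libraries at 64.6 to 66.6 FPM. In the same group the Ncoa4 level of N7 was 235 FPM, apart from the others at 214 to 217 FPM. These were 2 of 44 groups of 4 values examined over 11 genes, where chance alone marks about 1 in 20 groups, or 2.2 of 44.

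The pH response differed between NRK-52E and NRK-49F by the interaction test for 7 genes. The log2 difference, NRK-52E minus NRK-49F, was 2.12 for Ftl1, 1.92 for LOC100359668 and 1.72 for LOC100360087, which may share fragments and are not separate observations. It was 1.18 for Hmox2, -2.79 for Tfrc, -0.88 for Aco1 and -1.14 for Slc40a1, the last lost in 13 of 24 alternatives.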

How the results depend on the processing

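Over the alternatives that kept every library of a comparison or used 1 column number, 492 log2 fold changes of the members and ferritin copies kept their direction and side of the threshold, 9 became called, 10 lost the call and 16 changed sign. With 1 library left out, 496 kept both, 3 became called, 18 lost the call and 11 changed sign. No value that changed sign was called with the design reported. With total-count scaling the log2 fold change was -0.19 for Hmox1 and -0.0429 for Ireb2 in NRK-52E, 0.11 for Tfrc between the lines at pH 6.0 and -0.0276 for the Ncoa4 interaction. Without a count filter Hmox1 in NRK-52E was at -0.0025. With the column number as covariate it was -0.0006, Tfrc in NRK-49F was at -0.0047, and between the lines at pH 6.0 Ftl1 was at 0.0693, LOC100359668 at 0.063 and Aco1 at -0.0715. In number 22 alone, NRK-52E values were 0.14 for Slc11a2, -0.10 for Hmox1 and -0.14 for Ireb2, and in number 20 alone Tfrc in NRK-49F was at -0.33. Tfrc between the lines at pH 6.0 was at 0.0012 with DESeq2 alone and 0.0078 with median-of-ratios factors in edgeR. Leaving out 1 library gave -0.0422 to 0.0637 for Slc11a2 and -0.16 to 0.13 for Hmox1 in NRK-52E, -0.16 to 0.19 for Tfrc in NRK-49F, and between the lines at pH 6.0 -0.20 to 0.15 for Tfrc and -0.0351 to 0.12 for Aco1. The cause was not tested. Of the counts of calls, 91 of 96 stayed within 1.5 times, as did all 96 with 1 library left out. In NRK-52E number 22 alone, with fewer libraries, gave 2820 genes (7793 with all libraries) and 3 members (5). In NRK-49F number 21 alone gave 1980 genes (5039) and 1 member (2), and FDR below 0.05 gave 4 members. The log2 ratio differences with 1 library left out were -0.90 to -0.69 and 0.46 to 0.83 for Hmox1 to Hmox2 in NRK-52E and NRK-49F, and 1.04 to 1.45 and 1.06 to 1.36 for Ireb2 to Aco1, and 9 of 32 exceeded 0.05 in the exact permutation test. By column number, an alternative added after seeing the data in which no p could be below 0.05, they were -0.71 (21) and -0.90 (22) and 0.17 (20) and 1.15 (21) for Hmox1 to Hmox2 in NRK-52E and NRK-49F, and 1.68 (21) and 0.69 (22) and 0.70 (20) and 1.70 (21) for Ireb2 to Aco1. The groups share no replicate numbers, and the column number, whose meaning is unknown, was the block that could be fitted, as the covariate above. Only number 21 occurs in both lines. With that covariate a difference between the lines therefore rests on the libraries numbered 21 alone, as for Ftl1, LOC100359668 and Aco1 at pH 6.0. Depth limits Slc40a1 in NRK-49F, which had 12 to 46 counts per library.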
